A study of Mus musculus with 78 samples.

Results

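The 6 genes described here, Nlrp3, Pycard, Casp1, Casp4, Gsdmd and Il18, encode a core of the inflammasome and of pyroptosis, the lytic cell death it can set off. They were chosen by name from a count table of 52459 named genes, all 6 were found, and all 6 passed the filter that left 18857 genes to be tested. The tissue was cartilage engineered in culture from mouse induced pluripotent stem cells, with a series of 78 libraries, 39 of mRNA and 39 of small RNA. The mRNA libraries, which alone are used here, came in 13 groups of 3: control cartilage at 0, 4, 12, 24 and 72 h, and cartilage given either 1 ng/mL IL-1beta or 20 ng/mL TNF-alpha, both inflammatory cytokines, at 4, 12, 24 and 72 h. The controls carried no cytokine, and no source used here gives the strain of the cells, the number of stem cell lines or the medium. Of the 3 libraries of control 0 h, 1 was left out because its values did not line up with its gene names, so 38 libraries enter every value below.

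An inflammasome is assembled in the cytosol when a sensor such as NLRP3 binds the adaptor ASC, the product of Pycard, which in turn gathers and activates caspase-1. Caspase-1 cuts the precursors of IL-1beta and IL-18 into their active forms and cuts gasdermin D (Gsdmd), whose freed N-terminal part forms pores in the plasma membrane. Mouse Casp4 encodes caspase-11, which senses bacterial lipopolysaccharide inside the cell and cuts gasdermin D without an inflammasome. NLRP3 and pro-IL-1beta are made on demand through NF-kappaB after a priming signal such as a cytokine or a Toll-like receptor ligand, while activation needs a further trigger that transcript counts do not measure. These genes are best known from macrophages. In joints, IL-1beta and TNF-alpha are known for turning chondrocytes towards matrix breakdown.

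All positions are from RefSeq on GRCm38.p6, which is the mm10 build named in the submitters' processing notes. Casp1 (chr9:5298517-5307281) and Casp4 (chr9:5308849-5336791) are neighbours on the plus strand, 1568 bases apart, and Casp12, another inflammatory caspase, follows 8651 bases further on. Il18 lies elsewhere on the same chromosome (chr9:50554700-50581841), where RefSeq has Bco2 overlapping it by 515 bases and Tex12 by 4121. Nlrp3 lies at chr11:59541569-59566955, Pycard on the minus strand at chr7:127991373-127993867 and Gsdmd at chr15:75862144-75867408. No source used here gives the strand setting of the counting, so reads from Il18 and its overlapping neighbours cannot be told apart, and how reads shared by the related caspase genes were assigned is not known.

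Promoter windows, 250 bases before to 50 after a RefSeq start, were given for 5 of the 6 genes (7 windows of 32851 in all). They were searched on both strands for 2 forms of the kappaB motif, GGGNNTTTC, held by 4.36% of all windows, and GGGNNTTCC, held by 5.82%, which can overlap each other. They were also searched for the interferon response type GAAANNGAA, held by 8.56%. The windows below are printed because Casp4 and Nlrp3 rose under both cytokines, and Casp1 because it sits beside Casp4 and moved later. Gsdmd rose under both cytokines too, but no window was given for it, so it was not searched. Bases that match either kappaB form on either strand are in capitals.
Casp4, plus strand, chr9:5308599-5308898: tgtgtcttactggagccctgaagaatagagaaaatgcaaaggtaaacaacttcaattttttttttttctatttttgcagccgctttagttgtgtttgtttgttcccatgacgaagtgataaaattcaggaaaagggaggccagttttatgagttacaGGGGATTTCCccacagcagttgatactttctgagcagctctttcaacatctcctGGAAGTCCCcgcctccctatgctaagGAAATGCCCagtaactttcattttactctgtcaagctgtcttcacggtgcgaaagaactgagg
Nlrp3, first start, plus strand, chr11:59541319-59541618: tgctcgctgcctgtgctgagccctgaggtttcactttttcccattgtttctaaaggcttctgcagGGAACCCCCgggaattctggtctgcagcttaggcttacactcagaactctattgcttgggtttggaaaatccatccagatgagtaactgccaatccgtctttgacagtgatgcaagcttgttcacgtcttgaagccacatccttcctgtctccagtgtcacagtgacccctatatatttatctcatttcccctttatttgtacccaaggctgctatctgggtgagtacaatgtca
Nlrp3, second start, plus strand, chr11:59542436-59542735: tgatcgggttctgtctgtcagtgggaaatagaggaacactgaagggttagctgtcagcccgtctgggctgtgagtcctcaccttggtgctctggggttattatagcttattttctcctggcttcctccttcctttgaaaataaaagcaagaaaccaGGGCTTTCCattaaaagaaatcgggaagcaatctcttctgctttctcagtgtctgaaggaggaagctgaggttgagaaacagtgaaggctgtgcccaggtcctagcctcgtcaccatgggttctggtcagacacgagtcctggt
Casp1, plus strand, chr9:5298267-5298566: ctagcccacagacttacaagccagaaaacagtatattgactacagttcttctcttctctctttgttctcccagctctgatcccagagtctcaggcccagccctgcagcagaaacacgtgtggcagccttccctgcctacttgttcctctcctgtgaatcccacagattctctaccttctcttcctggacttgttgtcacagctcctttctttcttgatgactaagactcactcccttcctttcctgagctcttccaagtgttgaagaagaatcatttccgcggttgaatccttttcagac

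The printed Casp4 window held 4 kappaB matches. GGGGATTTC began 93 bases before the start and overlapped GGGATTTCC at 92, and GGGACTTCC and GGGCATTTC lay on the opposite strand at 39 and 13 bases before it. A further Casp4 window, of another start (chr9:5308610-5308909), is not printed. It held the same matches, at positions -104, -103, -50 and -24 from its own start. The first Nlrp3 window held GGGGGTTCC on the opposite strand at 185 bases before the start. The second held GGGCTTTCC at 94 bases before its own start. Il18 had 1 match, GGGTTTTTC on the opposite strand 38 bases after the start, and Casp1 and Pycard had none in these windows. None of the 7 windows held the interferon response type. A match is a run of letters and not a measured site, and a window with none says nothing about sites elsewhere.

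The 38 libraries held 11163263 to 68655350 counts, and levels are given as CPM, counts divided by the TMM-scaled library total on the usual scale of that unit. Whether replicates a, b and c of a group were separate cultures is not stated in the labels, and otherwise p-values reflect only the library-to-library spread, which may be technical. In the 8 libraries of IL-1beta 4 h and of controls at 4 h and 0 h, 10 genes were at least 4-fold lower than in the other 30 and 0 were higher. That parting runs between TNF-alpha 4 h and its control and between IL-1beta and TNF-alpha at 4 h, so TNF-alpha 4 h is given below against control 12 h as well. In that comparison treatment and time differ together and cannot be told apart. Bulk RNA cannot tell fewer cells of a kind from less RNA per cell.

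Chondrocyte markers defined the tissue, with Col2a1 (type II collagen) at a mean of 56530 CPM and Acan (aggrecan) at 6454. Defining markers of leukocytes, the cells in which these 6 genes are best known, were low. The highest library had 0.540 CPM of Ptprc (CD45), 1.11 of Adgre1, 0.646 of Spi1 and 0.385 of Tyrobp. None of these 4 was at 0 in every library. Adgre1 averaged 0.336 CPM in control at 72 h and 0.776 after IL-1beta, without overlap of libraries, and was not called (adjusted p = 0.0979). At 12 h it averaged 0.349 in control and 0.192 after TNF-alpha, also without overlap and not called (0.447). Of all 10 leukocyte markers 5 passed the filter, and the largest parts of the summed level were Cd68, a lysosomal protein that other cells also make, and Lyz2, the lysozyme of myeloid cells. At 24 h that sum was 27.4 to 38.7 CPM in control libraries, 46.2 to 53.8 in those given IL-1beta and 35.5 to 49.8 in those given TNF-alpha. At 72 h it was 32.4 to 38.7 in control, 33.9 to 39.2 after IL-1beta and 50.4 to 71.7 after TNF-alpha. Within it the markers moved apart. At 72 h of IL-1beta Lyz2 rose 3.42-fold, from a mean of 6.75 CPM in control to 23.1 (adjusted p = 1.17e-05), while Cd68 fell from 18.4 to 8.71 (3.73e-06). At 24 h of IL-1beta Cd68 rose 1.96-fold (adjusted p = 5.37e-06), and at 4 and 12 h 0 of the 5 rose. Of the 5, 1 rose and 1 fell at 24 h of IL-1beta, and 1 rose and 2 fell at 72 h, the times at which Casp1 rose. With TNF-alpha Csf1r rose at all 4 times, and Cd68 fell at 4 h and rose at 24 and 72 h. Laptm5, another leukocyte marker, fell with both cytokines at all times. The part of such cells in the results below was not tested. All 9 chondrocyte markers fell with IL-1beta at 24 and 72 h, as did 8 of 9 with TNF-alpha at 72 h. Earlier calls were fewer and mixed. For IL-1beta 0 of 9 were called at 4 h, while 1 was higher and 3 lower at 12 h. For TNF-alpha 1 was higher and 0 lower (4 h), then 2 and 2 (12 h), and 2 and 4 (24 h). Matn3 was among those higher at these 3 TNF-alpha times, by log2 changes of 0.50, 0.61 and 0.54. Fibroblast markers were abundant too, with means of 6333 CPM for Col3a1 and 5036 for Col1a1. Of 5 such markers 3 rose at 72 h of IL-1beta (Col3a1, Pdgfra and Postn), and 3 fell at 24 h and again at 72 h of TNF-alpha (Col1a1, Col3a1 and Postn). At 72 h their summed level was 9727 to 11890 CPM in control, 16010 to 16570 after IL-1beta and 3609 to 3968 after TNF-alpha. The part of either cell type in the changes of Casp1, Casp4 and Gsdmd was not tested. Of 4 endothelial markers 1 was tested and not called, and both pluripotency markers were under the filter.

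Levels can be compared between genes only per length, here as RPKM, that is CPM per kilobase of the deposited gene length. Over the 14 control libraries the median was 6.47 RPKM for Il18, 4.93 for Casp4, 4.64 for Casp1, 1.64 for Gsdmd, 1.31 for Pycard and 0.0125 for Nlrp3. Untreated cartilage thus held transcripts of both caspases, gasdermin D, the adaptor and the cytokine, with at most 5 counts of the sensor in any control library. The deposited length of Pycard, 3800 bases, is longer than its RefSeq span of 2495 bases, so its RPKM rests on a gene model other than the RefSeq one.

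Both cytokines raised more of the 6 genes than they lowered at every time. A gene is said to have risen or fallen when its Benjamini-Hochberg adjusted p over all tested genes was under 0.05. After 4 h of IL-1beta 3 rose and 1 fell, where of all tested genes 15.5% rose and 17.2% fell. After 12 h 2 rose and 0 fell (all genes 14.5% and 15.0%), after 24 h 4 rose and 0 fell (17.0% and 15.6%), and after 72 h again 4 rose and 0 fell (19.3% and 19.7%). After 4 h of TNF-alpha 3 rose and 1 fell (all genes 10.9% and 10.6%), after 12 h 4 rose and 0 fell (14.6% and 13.8%), after 24 h 3 rose and 0 fell (13.2% and 11.9%), and after 72 h 4 rose and 1 fell (17.8% and 18.3%). The median log2 fold change of the 6 genes was 0.65, 0.32, 0.71 and 1.12 with IL-1beta and 0.36, 0.49, 0.38 and 0.77 with TNF-alpha, where the medians of all tested genes lay between -0.033 and 0.003. The IL-1beta and TNF-alpha comparisons of a time share their control libraries.

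Scaling by library totals alone, in place of TMM, moved the split of all called genes between higher and lower but not the direction of any call on the 6 genes. It made 28.4% of the calls higher for IL-1beta at 4 h in place of 47.4%, 40.5% in place of 50.7% for TNF-alpha at 4 h, and 67.1% in place of 49.3% for TNF-alpha at 72 h. For IL-1beta against TNF-alpha it made 27.2% higher in place of 46.1% at 4 h and 34.9% in place of 48.7% at 72 h. Under that scaling all genes shifted on the log2 scale by -0.10 for IL-1beta at 4 h, by 0.11 for TNF-alpha at 72 h and by -0.10 for IL-1beta against TNF-alpha at 72 h.

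**Figure D1:**
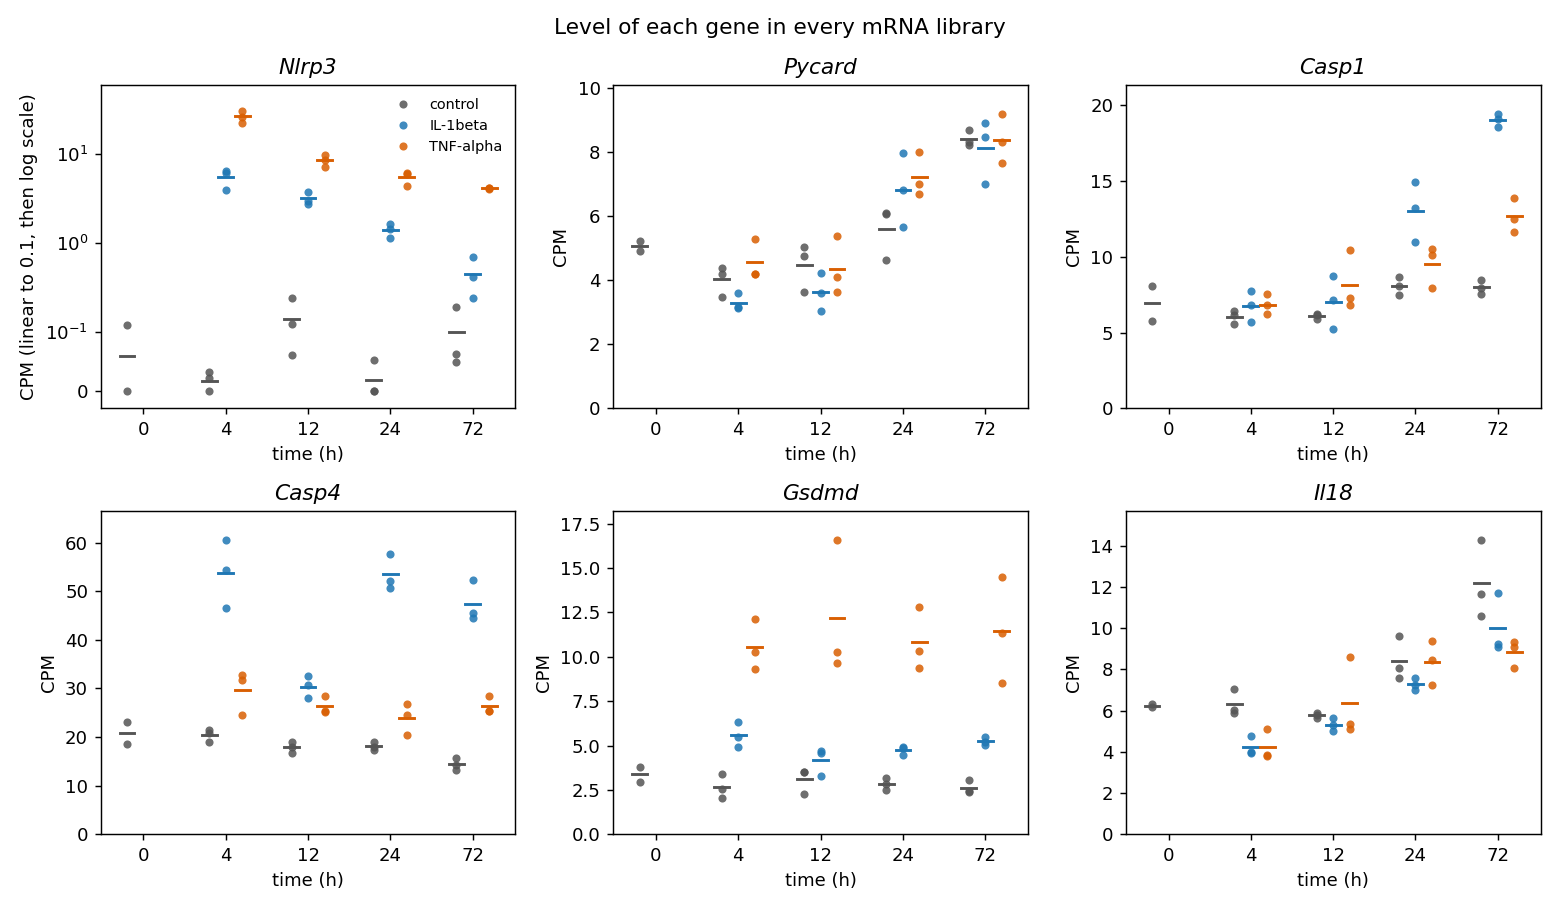
Level of the 6 genes in each of the 38 mRNA libraries, in CPM (TMM scaled), by time in hours; each point is a library and each short line a group mean. Nlrp3 is drawn on an axis that is linear to 0.1 and logarithmic above it. All 24 cytokine-treated libraries lie above all controls for Nlrp3, while Pycard and Il18 rise with time in the controls too.

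Nlrp3, the sensor, went from almost nothing to clearly measured under both cytokines, and was highest 4 h after TNF-alpha. Control libraries held 0 to 5 counts each. With TNF-alpha the 3 libraries held 22.4, 26.3 and 30.8 CPM after 4 h, 9.77, 8.63 and 7.05 after 12 h, 6.18, 4.40 and 6.02 after 24 h, and 4.18, 4.16 and 3.99 after 72 h. With IL-1beta they held 6.13, 6.51 and 3.92 CPM after 4 h, 3.78, 2.99 and 2.75 after 12 h, 1.62, 1.44 and 1.13 after 24 h, and 0.241, 0.416 and 0.685 after 72 h. The highest control library, at 12 h, had 0.239 CPM, so the lowest cytokine-treated library stood only just above it. All 12 libraries of each cytokine lay above the 12 controls of the same times.

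Because the controls of a time summed to only 1 to 8 counts, the increase of Nlrp3 is given as a ratio of normalised counts with a 95% exact binomial interval, which covers counting error only. With TNF-alpha it was 1420 (392 to 11700) after 4 h, 57.3 (28.8 to 133) after 12 h, 312 (55.7 to 12400) after 24 h and 39.8 (18.1 to 109) after 72 h. With IL-1beta it was 328 (90.3 to 2710) after 4 h, 21.1 (10.4 to 49.9) after 12 h, 78.9 (13.9 to 3140) after 24 h and 4.54 (1.85 to 13.4) after 72 h. The dip of the ratio at 12 h goes with 8 control counts at that time against 1 at 24 h. Every increase passed the test, with adjusted p-values from 6.17e-22 to 3.06e-13 for TNF-alpha and from 3.86e-17 to 0.0053 for IL-1beta. At 72 h of IL-1beta the call rested on 29 counts, with a log2 fold change of 2.12 ± 0.61 (SE), and without IL-1beta 72 h replicate c it was 1.66 with adjusted p = 0.0688. Against control 12 h, TNF-alpha 4 h was higher by 7.43 ± 0.31 (SE) on the log2 scale (adjusted p = 1.27e-19).

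Pycard, the adaptor, was not called under either cytokine at any time. Its levels ran from 3.04 to 8.91 CPM over the 12 IL-1beta libraries, from 3.64 to 9.19 over the 12 TNF-alpha libraries and from 3.50 to 8.69 over the 12 controls of the same times. The log2 fold changes lay between -0.30 ± 0.16 (SE), for IL-1beta at 4 h, and 0.37 ± 0.15, for TNF-alpha at 24 h, with adjusted p-values of 0.136 and 0.062. With library totals alone IL-1beta at 4 h passed, at -0.41 (adjusted p = 0.0453). Against control 12 h, TNF-alpha 4 h differed by 0.03 ± 0.17 (adjusted p = 0.918). Pycard rose with time in culture: control libraries held 3.63, 4.76 and 5.05 CPM at 12 h and 8.69, 8.31 and 8.22 at 72 h, a rise of 0.92 ± 0.15 on the log2 scale (adjusted p = 1.20e-05).

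Casp1, the protease of the inflammasome, rose late and more with IL-1beta. At 72 h the control libraries held 7.96, 8.46 and 7.54 CPM, the TNF-alpha libraries 12.5, 13.9 and 11.6, and the IL-1beta libraries 19.4, 19.1 and 18.5. The 3 groups did not overlap. At 24 h IL-1beta gave 13.2, 14.9 and 11.0 CPM, above the control libraries at 8.06, 7.47 and 8.67, while TNF-alpha gave 10.1, 7.94 and 10.5 and overlapped them. At 4 h the libraries of all 3 conditions lay between 5.54 and 7.76 CPM.

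The log2 fold change of Casp1 with IL-1beta was 0.18 ± 0.15 (SE) at 4 h and 0.20 ± 0.17 at 12 h, neither of which passed, then 0.68 ± 0.15 at 24 h (adjusted p = 0.000345) and 1.25 ± 0.15 at 72 h (8.92e-09). With TNF-alpha it was 0.67 ± 0.15 at 72 h (adjusted p = 0.000428). Against control 12 h, TNF-alpha 4 h differed by 0.17 ± 0.17 and did not pass (adjusted p = 0.529). The TNF-alpha call at 12 h, 0.42 ± 0.16 with adjusted p = 0.0498, was borderline. There the libraries held 6.80, 7.28 and 10.4 CPM against 6.21, 6.14 and 5.91 in control, and without TNF-alpha 12 h replicate c the change was 0.21 (adjusted p = 0.43). It was also lost without any one of the 3 control libraries of 12 h, with adjusted p-values of 0.0804, 0.0855 and 0.102.

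Casp4, which encodes the lipopolysaccharide sensor caspase-11, rose at every time with both cytokines, and was higher with IL-1beta than with TNF-alpha at 4, 24 and 72 h. With IL-1beta its libraries held 46.5, 54.4 and 60.5 CPM after 4 h, 32.5, 30.6 and 28.0 after 12 h, 52.1, 57.7 and 50.7 after 24 h, and 52.3, 44.4 and 45.6 after 72 h. With TNF-alpha they held 24.5, 31.7 and 32.8 CPM after 4 h, 28.5, 25.4 and 25.1 after 12 h, 26.8, 20.4 and 24.5 after 24 h, and 25.3, 25.5 and 28.5 after 72 h. The 12 controls of those times lay between 13.3 and 21.4 CPM. All 12 IL-1beta libraries stood above them, as did 11 of the 12 TNF-alpha libraries.

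The log2 fold change of Casp4 with IL-1beta was 1.40 ± 0.10 (SE), 0.76 ± 0.11, 1.56 ± 0.11 and 1.71 ± 0.11 at 4, 12, 24 and 72 h, that is 2.64-fold, 1.69-fold, 2.95-fold and 3.27-fold, with adjusted p-values from 3.63e-15 to 1.77e-06. With TNF-alpha it was 0.54 ± 0.11, 0.56 ± 0.11, 0.40 ± 0.11 and 0.87 ± 0.11, with adjusted p-values from 8.39e-08 to 0.00644. Without TNF-alpha 24 h replicate a the change at 24 h was 0.31 (adjusted p = 0.0628). Against control 12 h, TNF-alpha 4 h was higher by 0.73 ± 0.11 (adjusted p = 6.55e-06). Casp12, the next gene on the chromosome, did not rise with either cytokine at any time and fell with IL-1beta at 4 h (-0.39 ± 0.12, adjusted p = 0.00816).

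Gsdmd, the pore-forming effector, rose 3.80-fold to 4.37-fold with TNF-alpha over the 4 times, and was lower with IL-1beta than with TNF-alpha at each of them. TNF-alpha libraries held 12.1, 9.29 and 10.2 CPM after 4 h, 9.66, 16.6 and 10.3 after 12 h, 12.8, 10.3 and 9.34 after 24 h, and 8.53, 14.5 and 11.3 after 72 h. IL-1beta libraries held 5.50, 6.32 and 4.93 CPM after 4 h, 4.59, 4.68 and 3.26 after 12 h, 4.94, 4.84 and 4.44 after 24 h, and 5.47, 5.17 and 5.05 after 72 h. The 12 controls lay between 2.04 and 3.53 CPM, below all 12 TNF-alpha libraries and below 11 of the 12 IL-1beta libraries. The lowest TNF-alpha library was also above the highest IL-1beta library, over all times.

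The log2 fold change of Gsdmd with TNF-alpha was 2.01 ± 0.21 (SE), 1.98 ± 0.22, 1.93 ± 0.21 and 2.13 ± 0.21 at 4, 12, 24 and 72 h, with adjusted p-values from 4.37e-10 to 6.52e-09. With IL-1beta it was 1.12 ± 0.21 at 4 h (adjusted p = 6.06e-05), 0.74 ± 0.23 at 24 h (0.0106) and 0.98 ± 0.23 at 72 h (0.000746). Its 12 h value, 0.44 ± 0.25, did not pass (adjusted p = 0.191). Without control 24 h replicate c the IL-1beta change at 24 h was 0.64 (adjusted p = 0.0565). Against control 12 h, TNF-alpha 4 h was higher by 1.78 ± 0.22 (adjusted p = 1.05e-07).

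Il18, the cargo cytokine, did not rise with either cytokine at any time and fell at 4 h with both. At 4 h the control libraries held 7.04, 5.90 and 6.05 CPM, the IL-1beta libraries 3.95, 4.78 and 3.99 and the TNF-alpha libraries 3.79, 3.83 and 5.12. The controls did not overlap either treated group. The log2 fold change was -0.55 ± 0.15 (SE) with IL-1beta (adjusted p = 0.00499) and -0.59 ± 0.17 with TNF-alpha (0.00932). Without control 4 h replicate a, the highest control, these were -0.44 (adjusted p = 0.0533) and -0.50 (0.0632), and the TNF-alpha call was also lost without TNF-alpha 4 h replicate a or b (0.0651 and 0.0565). Against control 12 h, TNF-alpha 4 h was lower by 0.45 on the log2 scale (-0.45 ± 0.18) and did not pass (adjusted p = 0.0559).

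By 72 h the Il18 libraries held 11.7, 14.3 and 10.6 CPM in control, 11.7, 9.23 and 9.08 with IL-1beta and 9.09, 9.35 and 8.07 with TNF-alpha. Only the TNF-alpha group lay wholly below control. Its change was -0.46 ± 0.14 (adjusted p = 0.00801), or -0.33 (0.0971) without control 72 h replicate b. With IL-1beta the change was -0.30 ± 0.14 (adjusted p = 0.0976), and passed without control 72 h replicate c (-0.40, adjusted p = 0.0388) or IL-1beta 72 h replicate a (-0.42, 0.0332).

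**Figure D2:**
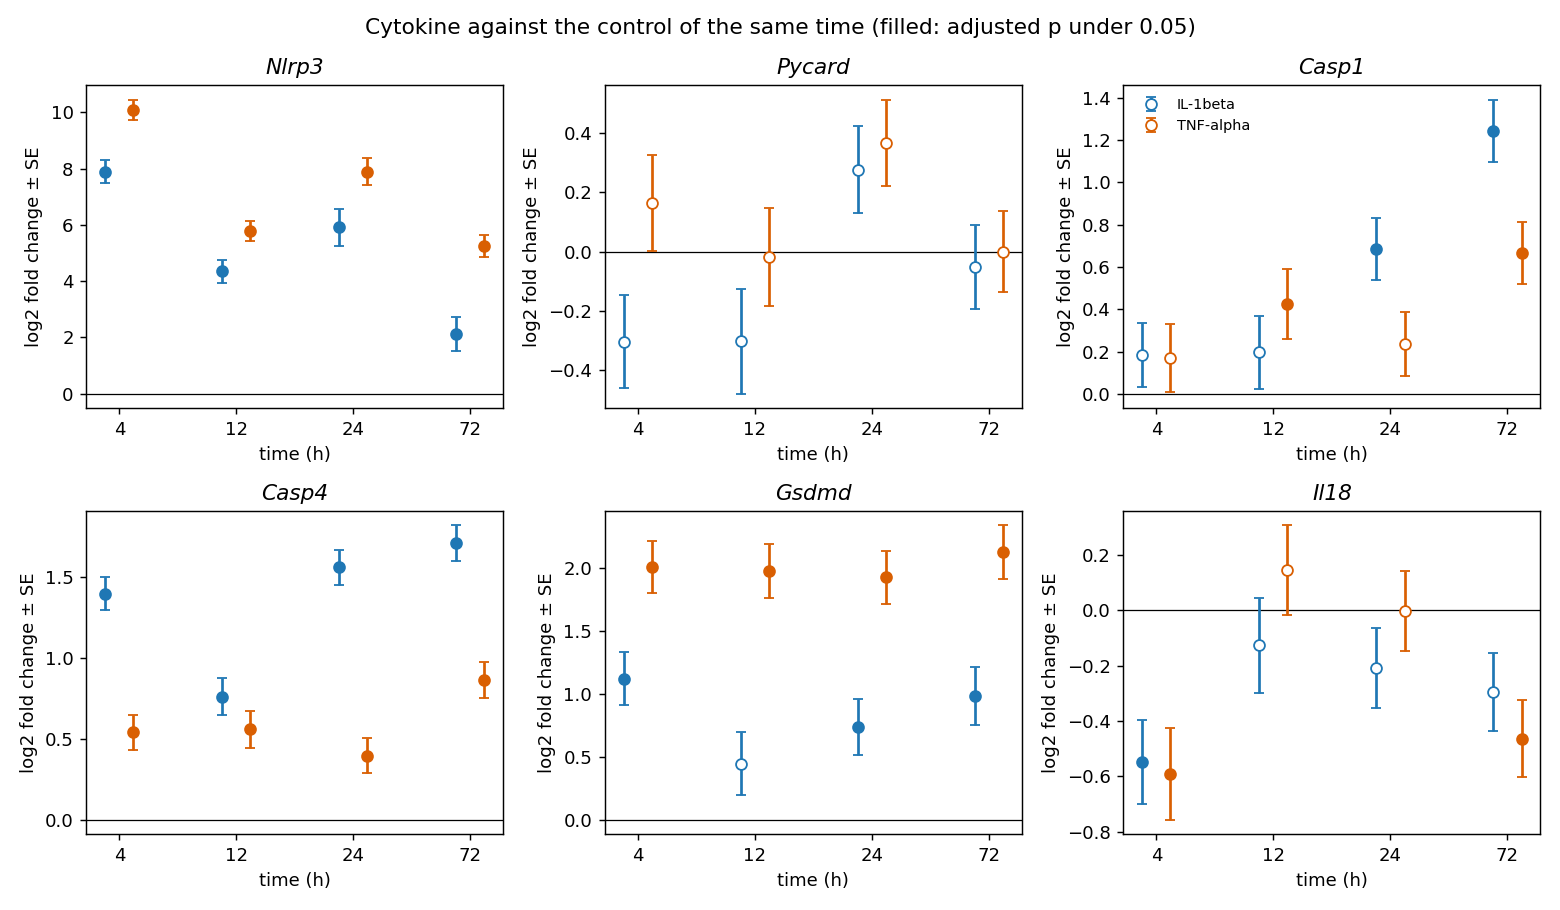
Log2 fold change of each of the 6 genes against the control of the same time, by time in hours, with bars of 1 SE; filled points had an adjusted p under 0.05. The vertical axes differ between genes. Nlrp3, Casp4 and Gsdmd lie above 0 throughout, Casp1 at 24 and 72 h of IL-1beta reaches 0.68 and 1.25, and no Pycard point is filled.

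The cytokines themselves were compared directly at each time, which needs no control libraries. The doses differ, 1 ng/mL against 20 ng/mL, so cytokine and dose cannot be told apart. IL-1beta gave less Nlrp3 than TNF-alpha at all 4 times, by log2 changes of -2.21 ± 0.18 (SE), -1.43 ± 0.21, -1.99 ± 0.22 and -3.12 ± 0.28, and less Gsdmd, by -0.89 ± 0.20, -1.53 ± 0.22, -1.19 ± 0.19 and -1.14 ± 0.19. It gave more Casp4 at 4, 24 and 72 h, by 0.86 ± 0.11, 1.17 ± 0.10 and 0.84 ± 0.10, and more Casp1 at 24 and 72 h, by 0.45 ± 0.14 and 0.58 ± 0.14. The sensor and the pore former were thus higher with TNF-alpha, and the pair of caspases higher with IL-1beta at 24 and 72 h.

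In that comparison 3 of the 6 genes were called at 4 h, 2 at 12 h, 4 at 24 h and 4 at 72 h, where 12.4%, 10.6%, 20.1% and 39.8% of all tested genes were called. Adjusted p-values were at most 0.00203 for every called difference of Nlrp3, Casp4 and Gsdmd. The Casp1 difference at 24 h had adjusted p = 0.0189 and was lost without IL-1beta 24 h replicate a (0.0543), IL-1beta 24 h replicate b (0.137) or TNF-alpha 24 h replicate b (0.17). At 72 h its adjusted p was 0.000792. At 12 h Casp4 did not differ beyond its error (0.20 ± 0.11, adjusted p = 0.275). At 4 h the 2 groups lie on either side of the parting of libraries described above, so the parting and the cytokine cannot be told apart there. Pycard and Il18 were not called at any time, with differences from -0.47 ± 0.17 (Pycard at 4 h, adjusted p = 0.0713) to 0.17 ± 0.14 (Il18 at 72 h, 0.371). With library totals alone the Pycard difference at 4 h passed (-0.53, adjusted p = 0.0428).

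**Figure D3:**
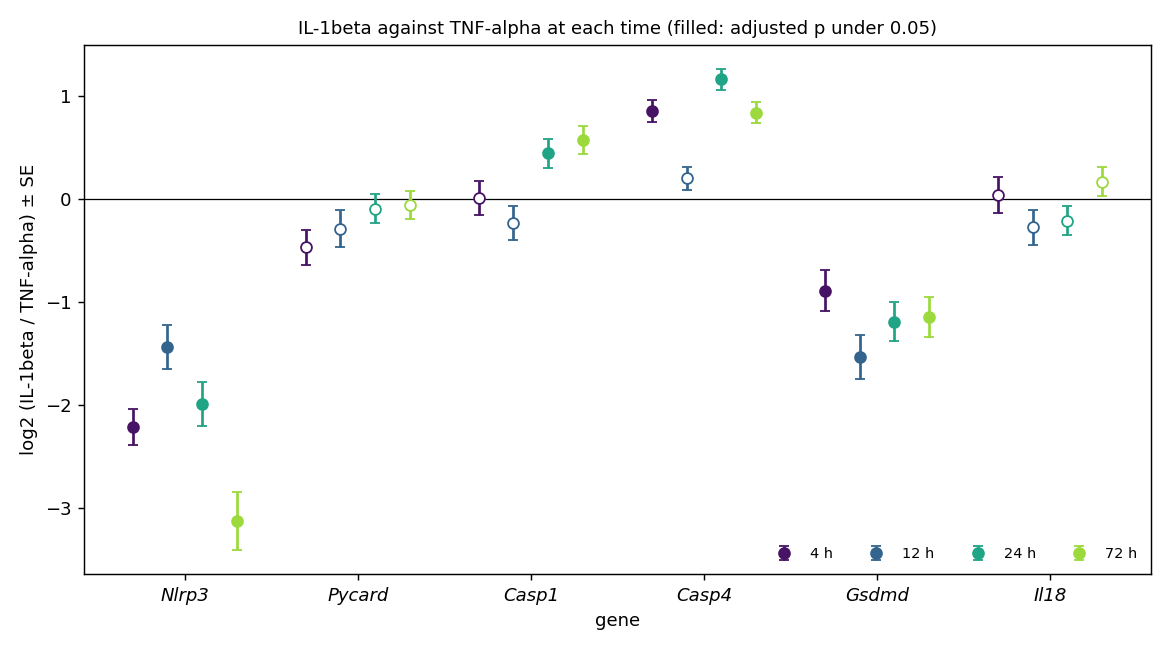
Log2 ratio of IL-1beta to TNF-alpha for each gene at 4, 12, 24 and 72 h, with bars of 1 SE; filled points had an adjusted p under 0.05. Nlrp3 and Gsdmd lie below 0 at all 4 times, Casp4 above 0 at 4, 24 and 72 h, and Casp1 above 0 at 24 and 72 h.

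A test of treatment by time, over all 4 times at once, asked whether an effect changed with time. With IL-1beta it differed between the 4 times for Nlrp3 (adjusted p = 0.000577), Casp1 (0.000236) and Casp4 (4.04e-05), 3 of 6 genes where 38.7% of all genes were called. Their courses differed. The Nlrp3 effect was smaller at 72 h than at 4 h by a log2 change of -5.77 ± 1.18 (SE, adjusted p = 0.000224), and the Casp1 effect larger by 1.06 ± 0.21 (0.000142). For Nlrp3 the mean with IL-1beta was 5.52 CPM at 4 h and 0.447 at 72 h. Its controls summed to 2 counts at 4 h and 6 at 72 h, so the size of that difference also depends on those few counts. No other of the 6 was called between 72 h and 4 h, so 2 of 6 were, where 30.6% of all genes were called. The Casp4 change had its lowest value, 0.76, at 12 h. For Gsdmd the IL-1beta effect did not differ detectably between times (adjusted p = 0.307).

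With TNF-alpha the effect differed between times for Nlrp3 (adjusted p = 0.00159) and Il18 (0.031), 2 of 6 genes where 19.2% of all genes were called. The controls of Nlrp3 summed to 2, 8, 1 and 6 counts at 4, 12, 24 and 72 h. The size of its differences between times also depends on those few counts. The Il18 call was lost in 6 of the 24 fits that each left out 1 library, with adjusted p-values up to 0.0586. Those libraries were control 4 h replicate a, TNF-alpha 4 h replicates a and b, TNF-alpha 12 h replicate c, control 72 h replicate b and TNF-alpha 72 h replicate c. The Gsdmd effect did not differ detectably (adjusted p = 0.953), with changes of 1.93 to 2.13. Between 72 h and 12 h, both on the same side of the parting, edgeR called 0 of the 6 genes and DESeq2 0, with 1 (Il18, -0.61 ± 0.21) at an unadjusted p under 0.05, where edgeR called 8.54% of all genes.

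The controls drifted with time in culture, which the matched comparisons take out. From 12 h to 72 h Il18 rose from 5.78, 5.90 and 5.66 CPM to the values given above, by 1.08 ± 0.15 (SE) on the log2 scale (adjusted p = 6.90e-07), and Pycard rose as given above. Casp4 fell by 0.30 on that scale (-0.30 ± 0.12, adjusted p = 0.0383), a call lost without control 12 h replicate a or b, control 72 h replicate a or c, and with library totals alone (-0.21, adjusted p = 0.187). These were 3 of 6 genes, where 37.1% of all genes were called. From 12 h to 24 h only Il18 was called (0.54 ± 0.16, adjusted p = 0.0111), 1 of 6 where 21.7% of all genes were called, and not without control 24 h replicate c (0.44, adjusted p = 0.0762). Casp1 changed there by 0.41 ± 0.16 (adjusted p = 0.0718) and passed with library totals alone (0.53, adjusted p = 0.0219). Library totals alone made 77.1% of all calls higher from 12 h to 24 h in place of 47.2%, with a shift of all genes by 0.13 on the log2 scale, and 65.4% in place of 50.5% from 12 h to 72 h. From 0 h to 4 h edgeR and DESeq2 each called 0 of the 6 genes, and 0 had an unadjusted p under 0.05, where edgeR called 20.4% of all genes.

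Ordered by mean level, the 13 groups of Nlrp3 ran from TNF-alpha 4 h (26.5 CPM) through TNF-alpha 12 h (8.48), TNF-alpha 24 h (5.54), IL-1beta 4 h (5.52), TNF-alpha 72 h (4.11), IL-1beta 12 h (3.18), IL-1beta 24 h (1.40) and IL-1beta 72 h (0.447) down to the 5 control groups. Of the 12 neighbouring pairs in that order 6 had overlapping libraries, among them all 4 pairs of controls. For Gsdmd the 4 TNF-alpha groups led at 10.6 to 12.2 CPM, overlapped each other and stood apart from the 4 IL-1beta groups at 4.18 to 5.58. For Casp4 the IL-1beta groups of 4, 24 and 72 h led at 47.4 to 53.8 CPM, overlapping each other, and stood apart from IL-1beta 12 h at 30.4. Casp1 was led by IL-1beta 72 h at 19.0 CPM, apart from the rest. Pycard was led by the 3 groups of 72 h at 8.14 to 8.41 CPM and Il18 by control 72 h at 12.2. All 12 neighbouring pairs of Pycard and 11 of 12 of Il18 overlapped.

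Across the 13 group means, whose likeness is given as a description, Nlrp3 and Gsdmd followed each other most among the 6 genes (Pearson r = 0.885), and Pycard and Il18 next (0.881). Casp4 and Pycard did not (-0.099). The search covered 12411 genes with a mean of at least 1 CPM, without predicted-gene or clone symbols. Among them the courses most like that of Nlrp3 were those of Tnf (0.985), Cxcl2 (0.974) and Stx11 (0.974). Those most like Gsdmd were Psmb10 (0.971), Parp14 (0.966) and Ifi47 (0.964). For Casp4 they were Calcrl (0.957), Osmr (0.951) and Ankrd55 (0.948), and for Casp1 Emc2 (0.969), Adhfe1 and Pld3 (both 0.964). Manba (0.984), Acad9 and Prdx2 (both 0.961) came nearest to Pycard, and Armcx6 and Rida (both 0.974) and Ttc23 (0.971) to Il18. With 13 points and so many genes searched, values of this size are read as likeness only.

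The rest of the pathway was read from a list of 39 genes, of which 26 passed the filter. After 4 h of IL-1beta 12 of the 26 rose and 6 fell, and the later counts were 13 and 3 (12 h), 15 and 2 (24 h), then 13 and 3 (72 h). After TNF-alpha, in the same order of times, 9 rose and 3 fell, 14 and 5, 12 and 4, and lastly 13 and 4. The shares of all genes at the same times were given above. The median log2 fold change of the 26 lay between 0.29 and 0.52 after IL-1beta and between 0.18 and 0.49 after TNF-alpha.

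Transcripts of the inflammasome's other main cargo were scarce. Il1b, the precursor of IL-1beta, summed to 25 counts over the 38 libraries with at most 0.147 CPM in any of them, and Il1a reached at most 0.333 CPM. Both were under the filter and were not tested. Of 10 other sensors only Aim2, which binds cytosolic DNA, and Naip2 passed it. Aim2 rose with IL-1beta from 0.222 ± 0.131 (SD, n = 3) to 0.672 ± 0.309 CPM (4 h) and from 0.314 ± 0.065 to 0.877 ± 0.072 (12 h), and with TNF-alpha at 4, 12 and 24 h by 1.62 ± 0.39 (SE), 1.57 ± 0.39 and 1.18 ± 0.37 on the log2 scale. Naip2 was not called at any time. The other 8 sensors, among them Nlrc4 and Mefv (pyrin), reached at most 0.481 CPM, were under the filter and were not tested.

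Among 6 genes that license or trigger NLRP3 or the caspase-11 route, 2 guanylate-binding proteins, which act on bacterial membranes, had the largest increases. Gbp2 stood at 5.54 ± 0.35 CPM (SD, n = 3) in control at 4 h, 78.2 ± 11.5 with IL-1beta and 129 ± 15 with TNF-alpha, and rose by 2.55 to 3.83 on the log2 scale after IL-1beta and by 4.25 to 4.56 after TNF-alpha over the 4 times. Gbp5 rose by 1.71 to 4.27 and by 4.61 to 5.75. Gbp2, as Nlrp3 and Gsdmd, was lower with IL-1beta than with TNF-alpha at all 4 times (log2 changes of -0.72 to -1.90), and Gbp5 at 4, 12 and 24 h. P2rx7, the ATP-gated channel that can trigger NLRP3, rose at 12, 24 and 72 h with IL-1beta by 0.51 ± 0.11 (SE), 1.11 ± 0.10 and 0.86 ± 0.10, and with TNF-alpha by 0.48 ± 0.11, 0.79 ± 0.10 and 0.78 ± 0.10. It fell at 4 h of IL-1beta (-0.36 ± 0.10, adjusted p = 0.00808). Txnip, a thioredoxin-binding protein, fell with both cytokines at all times, with 192 ± 4 CPM (SD, n = 3) in control at 24 h, 126 ± 10 after IL-1beta and 87.1 ± 3.2 after TNF-alpha. Nek7, of the same 6 genes, had a lower mean with both cytokines at every time. At 4 h it averaged 138.8 CPM in control, 112.7 after IL-1beta and 113.0 after TNF-alpha, and at 72 h 142.3, 105.1 and 108.5 in the same order.

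Of the 5 other death effectors tested 2 at most rose at any time. Ninj1, which ruptures the membrane of dying cells, rose at 12 h with both cytokines (0.32 ± 0.09 and 0.39 ± 0.09, SE) and at 24 h with TNF-alpha (0.42 ± 0.09), and fell at 72 h with IL-1beta (-0.57 ± 0.09, adjusted p = 4.52e-06). Dfna5, the older symbol of gasdermin E, rose with TNF-alpha at 72 h by 0.63 ± 0.11 (adjusted p = 3.21e-05) and with IL-1beta at 4, 12 and 72 h by 0.30 to 0.35. Casp8 rose by 0.23 ± 0.08 at 24 h of IL-1beta and by 0.27 ± 0.08 at 12 h of TNF-alpha.

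On the receiving side of IL-18, the accessory receptor chain Il18rap rose at all times with both cytokines. Its mean went from 0.376 ± 0.112 CPM (SD, n = 3) in control at 4 h to 2.36 ± 0.36 after IL-1beta and 3.90 ± 0.45 after TNF-alpha. At 72 h these means were 0.236 ± 0.123, 0.608 ± 0.158 and 3.93 ± 0.83 in the same order. The other receptor chain, Il18r1, was under the filter with at most 0.365 CPM. Il18bp, the secreted decoy that binds IL-18, rose at all 4 times with TNF-alpha by 0.65 to 0.85 on the log2 scale, and with IL-1beta at 4 h only by 0.60 ± 0.13 (SE, adjusted p = 0.000543). At 12, 24 and 72 h Il18bp was lower with IL-1beta than with TNF-alpha, by -0.67 ± 0.14, -0.72 ± 0.13 and -0.52 ± 0.13.

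Among 5 inhibitors, Il1rn, the IL-1 receptor antagonist, went the other way, with more under IL-1beta than TNF-alpha at all 4 times (log2 changes of 0.80 to 2.50). At 4 h its mean was 22.9 ± 1.7 CPM (SD, n = 3) in control, 175 ± 35 with IL-1beta and 55.2 ± 8.8 with TNF-alpha. Serpinb1a, an inhibitor of neutrophil proteases and of inflammatory caspases, fell with IL-1beta at 4 h (-0.38 ± 0.13, SE) and 12 h (-0.36 ± 0.14) and rose at 24 h (0.56 ± 0.13) and 72 h (1.04 ± 0.14). With TNF-alpha it fell at 12, 24 and 72 h (-1.08 ± 0.14, -0.79 ± 0.14 and -0.80 ± 0.15). The difference between the cytokines at 72 h was 1.83 ± 0.14 (adjusted p = 4.01e-13). Serpinb9, a granzyme B inhibitor, fell at 4 h of IL-1beta (-0.44 ± 0.10) and rose at 12 and 24 h of IL-1beta and at 12, 24 and 72 h of TNF-alpha by 0.27 to 0.56.

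Of the 6 receptors and adaptors of the priming signal, 5 rose with IL-1beta at 4 h, 3 at 12 h and all 6 at 24 and 72 h, and 0 fell. With TNF-alpha 3 rose and 1 fell at first (4 h), then 3 and 2 (12 h), 3 and 1 (24 h), and 4 and 1 (72 h). These counts are read beside the shares of all genes given above. Tnfrsf1a, the other TNF receptor gene of the list, was the most abundant of the 6, at a mean of 121 CPM over all libraries. Tnfrsf1b, the inducible TNF receptor, rose with both cytokines at every time, by 0.78 to 1.02 after IL-1beta and by 0.49 to 1.32 after TNF-alpha. Il1r1, the signalling IL-1 receptor, rose with IL-1beta at 4, 24 and 72 h by 0.81 ± 0.09 (SE), 0.33 ± 0.09 and 1.06 ± 0.09, and fell with TNF-alpha at 12, 24 and 72 h (-0.36 ± 0.09, -0.38 ± 0.09 and -0.25 ± 0.09). Its partner Il1rap rose at all times with IL-1beta, by 0.43 to 0.97, and with TNF-alpha at 72 h by 0.35 ± 0.09. Myd88, the adaptor of IL-1 and Toll-like receptors, rose at 4, 24 and 72 h of IL-1beta by 0.69 to 0.83 and at all times of TNF-alpha by 0.28 to 0.57.

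**Figure D4:**
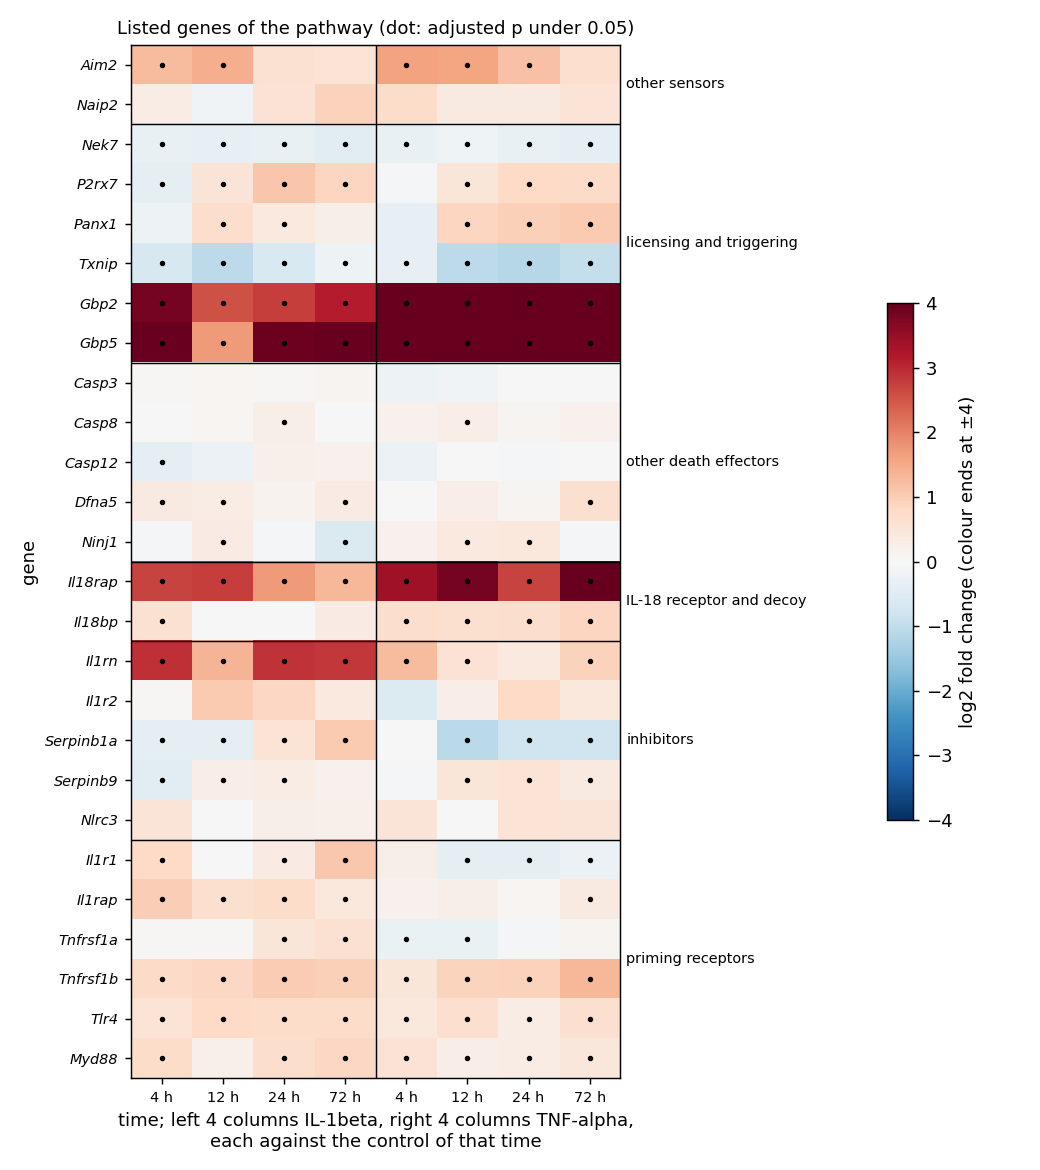
Log2 fold change of the 26 listed pathway genes that were tested, in rows grouped by role, at 4 times of IL-1beta (left) and TNF-alpha (right) against the control of the same time; a dot marks an adjusted p under 0.05 and colours end at 4. Gbp2 and Gbp5 are deep red under both cytokines, Il18rap is deeper under TNF-alpha and Il1rn under IL-1beta, and Txnip and Nek7 are blue at every time.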

How the data were processed

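Cartilage engineered from mouse induced pluripotent stem cells was given IL-1beta or TNF-alpha, and total RNA was sequenced after Ribo-Zero Gold libraries, per the labels' protocols. The deposited mRNA table holds whole-number counts per gene, with a gene length in bases as other information in a column of its own. The submitters' processing notes list STAR, featureCounts, Trimmomatic, cutadapt and the build mm10 without versions or roles. For annotation and strand setting, no source used here gives a value. Another 2199 lines at the end of this file hold values with no gene name, and were left out.

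The column of control 0 h replicate b held 220180 counts and correlated at 0.182 and 0.183 with its group, whose other libraries correlated at 0.99, so it was left out after its values were seen. No libraries of a group were copies (lowest chi-square per degree of freedom 3.39).

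The test was the quasi-likelihood F test of edgeR 4.0.16, run in R 4.3.3 with limma 3.58.1. It used TMM scaling, filterByExpr by group, a single fit over 38 libraries with a coefficient per group, Benjamini-Hochberg adjustment over 18857 genes, and calls at adjusted p under 0.05. Tested genes held 99.905% of counts. TMM factors lay between 0.864 and 1.12, and the common BCV (biological coefficient of variation) was 8.26%. SE is the log2 fold change divided by the square root of F. CPM uses TMM-scaled totals. Intervals of Nlrp3 ratios are exact conditional binomial ones at 95.0%. The edgeR fit was tested on simulated counts only for IL-1beta against control at 24 h, with changes put into genes of at least 1 CPM in control.

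The alternatives were DESeq2 1.42.0, DESeq2 size factors, no low-count filter, library totals alone, a replicate block, only the libraries compared, all 39 libraries, TNF-alpha 4 h against control 12 h, and leaving out each library in turn. Python 3.11.15, NumPy 2.4.6, pandas 2.3.3, SciPy 1.17.1 and matplotlib 3.10.9 were used for summaries and figures.

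The 6 genes and all lists were chosen with earlier results of these data known. Named besides them were at most 4 called genes per role of the pathway list with the smallest p, the most abundant of a role for contrast, and the 3 genes of most similar course for each of the 6, by Pearson correlation of 13 group means of log2 CPM (prior count 2, mean CPM at least 1). That search for similar courses left out symbols of the form Gm plus a number, those ending in Rik, those containing -ps and clone names with a dot. Nek7, Panx1, Naip2 and some genes of the list under the filter are named too. All 6 genes matched RefSeq and 5 of 6 its promoter windows. Small RNA counts were not used here.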

Additional observations from a re-analysis of the deposited data

Results flagged for a closer look

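These results stand out because the same cytokine had effects that differed between times, by a test of the difference itself. The IL-1beta effect on Nlrp3 differed between 4, 12, 24 and 72 h (adjusted p = 0.000577), as did that on Casp1 (0.000236) and on Casp4 (4.04e-05). Between 72 h and 4 h of IL-1beta the Nlrp3 effect was smaller (adjusted p = 0.000224) and the Casp1 effect larger (0.000142), so the effects on the sensor and on the protease changed in opposite directions. The size of the Nlrp3 difference depends in part on control sums of 2 counts at 4 h and 6 at 72 h. The TNF-alpha effect differed between the 4 times for Nlrp3 (adjusted p = 0.00159) and for Il18 (0.031). For Nlrp3 the TNF-alpha differences depend in part on the same low control counts. The Nlrp3 and Il18 results with TNF-alpha include the 4 h time, where the treated and control libraries lie on either side of the parting of libraries, and its part was not tested.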

How the results depend on the processing

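No direction of a called change in the 6 genes reversed under any alternative run. With DESeq2 and with its size factors all 102 comparisons of single genes stayed on their side of the threshold. Other settings moved 1 to 7 of them each. Casp1 at 12 h of TNF-alpha was also lost with only the libraries compared (adjusted p = 0.0962). In controls at 72 h against 12 h Casp1 passed with library totals alone (0.0257), no low-count filter (0.0347) and only the libraries compared (0.0222). Library totals alone also called Pycard in controls at 24 h against 12 h (0.0348) and Casp4 for the IL-1beta effect at 72 h against 4 h (0.0473). With the replicate block the only change was Casp1 at 12 h of TNF-alpha (0.42, adjusted p = 0.0582). No pairing of samples by the letters a, b and c was detected. Deviations of libraries with the same letter correlated at a median of -0.003 (6 of 222 pairs over 0.1), and with another letter at 0.001 (14 of 444). Of the 38 libraries, 9 correlated best with their own letter. Such correlations cannot exclude a shared culture or batch behind a letter.

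With all 39 libraries, the misaligned one included, fewer genes were called: 2848, 2722, 3029 and 4284 for IL-1beta at 4, 12, 24 and 72 h, 1584, 2331, 2038 and 3330 for TNF-alpha, and 685, 639, 1865 and 4342 between them. For controls it gave 1745 (4 h against 0 h), 907 (24 h against 12 h) and 3304 (72 h against 12 h), and for effects that differ with time 2994 and 2529 (IL-1beta, all times and 72 h against 4 h) and 739 and 291 (TNF-alpha, all times and 72 h against 12 h). It also ended the calls of Casp4 at 24 h of TNF-alpha (adjusted p = 0.0673), Casp1 at 12 h of TNF-alpha (0.0938), Casp1 between the cytokines at 24 h (0.0709), Il18 in controls at 24 h against 12 h (0.0722) and Casp4 in controls at 72 h against 12 h (0.203). A fit on only the libraries compared called 1549 genes between the cytokines at 4 h and 908 at 12 h.

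Of the 6 genes, control 24 h against 12 h had 1 call, and 3 with library totals alone, 2 with no low-count filter, 0 with all 39 libraries and 2 with only the libraries compared. The TNF-alpha effect differing between times had 2 calls, and 1 with all 39 libraries or only the libraries compared. Leaving out 1 library at a time gave 1431 to 2078 genes called between the cytokines at 4 h (1431 without TNF-alpha 4 h replicate a), and 1530 to 3160 for control 4 h against 0 h (1530 without control 0 h replicate c). It gave 0 to 1 of the 6 genes for control 24 h against 12 h, 1 to 2 for the TNF-alpha effect over all times, and 0 to 1 for TNF-alpha at 72 h against 12 h. Library totals alone made 66.4% of the calls higher in place of 51.1% for the IL-1beta effect at 72 h against 4 h, and 64.4% in place of 42.6% for TNF-alpha at 72 h against 12 h. Counts of Nlrp3 in controls limit its fold changes: without control 24 h replicate b, its only count there, the fitted log2 change was 7.95 with IL-1beta and 9.94 with TNF-alpha, in place of 5.91 and 7.90. The protein features planned for the 6 genes were not run.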
